A study of Mus musculus with 6 samples.

Results

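Multiciliated cells, which bear many beating cilia, are built by a small circuit of nuclear regulators, and 9 of them were followed here in the choroid plexus (ChP), the epithelium that secretes cerebrospinal fluid. The 9 genes were Foxj1, Rfx1, Rfx2, Rfx3, Trp73, Myb, Ccno, E2f4 and E2f5. They were taken by symbol from a table of 24354 gene names, and all 9 were in it. Ccno encodes cyclin O, which is not a transcription factor, although it is grouped with them.

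The mRNA came from translating ribosome affinity purification (TRAP), in which ribosomes carrying a tagged subunit are pulled down with the transcripts they hold. Animals of both ages had the genotype FoxJ1:cre x bacTRAP (EGFP:L10a), so that EGFP fused to the ribosomal protein L10a was made in cells, and in descendants of cells, in which Foxj1 regulatory DNA had driven Cre recombinase. The adult group had 3 samples at 60 days of age and the embryonic group 3 samples at embryonic day 16.5 (E16.5), all untreated as far as the labels say. By the study's methods each sample was lateral ventricle ChP pooled from several mice or litters, whereas the series' own text speaks of 3 mice at each age. How many animals stand behind a replicate is therefore not settled, and p-values measure the spread between these samples. The gene that drove the Cre is itself one of the 9, and the same driver served both ages. Values are FPKM, in which the fragments of a gene are divided by its transcript length and by the mapped fragments of the library, so that levels of different genes can be set side by side per length.

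In cells that make many cilia, activators of the geminin family, Gmnc and Mcidas, act through E2F4 or E2F5 with a DP partner and switch on Myb, Ccno, Foxj1 and genes of centriole amplification. FOXJ1, a forkhead factor, and the RFX factors, which bind the X-box motif of ciliary promoters, then turn on the genes of axonemes, dynein arms and intraflagellar transport. p73, the product of Trp73, acts upstream of several of these. ChP epithelial cells carry tufts of cilia, and whether cilia moved was not measured in these samples.

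Promoter windows in the RefSeq set of GRCm38.p6 (mm10) run from 250 bases before to 50 bases after a start site. Windows were held for 6 of the 9 genes, with 7 windows because Trp73 had 2. They were searched on both strands for GTTGCC, the letters of one arm of an X-box. It stood in 5 of the 7 windows, against 12.5% of all 32851 windows, 18 of 47 windows of motile cilia genes and 12 of 25 windows of intraflagellar transport and BBSome genes. The stretches below are shown because they place the RFX-type letters in promoters of RFX genes and of the circuit they belong to. Capitals mark the match, and each stretch reads 5′ to 3′ on the gene's strand.

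Ccno, chr13:112987571-112987600, plus strand: acccgggctgcgGTTGCCacggtgacgaca
Rfx1, chr8:84066825-84066854, plus strand: tgggtagcaacaGTTGCCccggtgagggaa
Rfx2, chr17:56831107-56831136, minus strand: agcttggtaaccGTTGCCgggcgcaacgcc
Rfx3, chr19:28011118-28011147, minus strand: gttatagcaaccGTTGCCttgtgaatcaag
Trp73, chr4:154139856-154139885, minus strand: tccaggcgaggaGGCAACgctgcagcccag

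The match in Ccno began 219 bases before the start site and that in Rfx2 began 116 bases before it. In Rfx1, Rfx3 and the upstream window of Trp73 it lay after the start, beginning at bases 2, 32 and 3 of the transcript. A full X-box, with both arms at a spacing of 0 to 3 bases, was found in Ccno alone among the 7 windows and in 1.53% of all windows, and it overlaps the Ccno match given above. Longer stretches upstream of Ccno (250 bases) and Rfx2 (240 bases, without the 10 nearest the start) are shown because these are the 2 genes with a match before the start site, with the X-box of Ccno and the single arm of Rfx2 in capitals.

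Ccno upstream, chr13:112987552-112987801, plus strand: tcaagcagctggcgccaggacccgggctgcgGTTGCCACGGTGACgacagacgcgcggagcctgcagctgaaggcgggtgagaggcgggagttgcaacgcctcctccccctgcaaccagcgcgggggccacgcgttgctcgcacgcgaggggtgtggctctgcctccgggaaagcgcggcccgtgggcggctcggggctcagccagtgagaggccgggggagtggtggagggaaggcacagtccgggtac
Rfx2 upstream, chr17:56831019-56831258, minus strand: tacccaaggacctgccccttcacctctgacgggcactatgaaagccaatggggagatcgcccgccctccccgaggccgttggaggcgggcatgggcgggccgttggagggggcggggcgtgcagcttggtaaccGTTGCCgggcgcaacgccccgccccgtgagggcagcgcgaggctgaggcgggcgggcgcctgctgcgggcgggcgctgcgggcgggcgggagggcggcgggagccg

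Letters bound by other factors of the circuit stood in fewer of these windows. The E2F letters TTCCCGC occurred at 2 places in the upstream window of Trp73 and in no other of the 7, against 4.60% of all windows. The forkhead letters GTAAACA occurred only in Myb, against 3.65%, while the MYB letters TAACGG and the p53-family decamer occurred in none of the 7, against 2.76% and 8.36%. Both E2F matches of Trp73 and the forkhead match of Myb are shown, since they join one listed regulator to the promoter of another by letters alone.

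Trp73 first E2F match, chr4:154140094-154140123, minus strand: gccaagcggcgGCGGGAAggaggcgggagg
Trp73 second E2F match, chr4:154139960-154139989, minus strand: cccgcgctgccTTCCCGCcggtccgccaag
Myb forkhead match, chr10:21160935-21160964, minus strand: gtttgatggcatcTGTTTACagagttacac

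A match of letters is a description of the sequence and not a bound site, and no binding was measured in these samples.

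All libraries held abundant ChP epithelial transcripts. The 13 markers of that epithelium fixed for this check were detected in every adult sample, and 12 of them in every E16.5 sample. The markers did not share one direction. By limma 6 of the 13 were called higher in adults and 3 higher at E16.5, against 2.12% and 8.83% of all genes tested. Those higher at E16.5 were Otx2, Lmx1a and Kcne2. Enpp2, a secreted lysophospholipase D, had 14886 to 18732 FPKM in adults and 242 to 303 FPKM at E16.5. Ttr, which encodes the thyroxine carrier transthyretin, was listed at 0 in all 3 E16.5 samples and at 20922 FPKM or more in the adults, so that a listed 0 in this table can be a failed estimate. Adult libraries were shallower. By the spacing of low values, which come in whole reads, 1 read per kilobase was worth 0.113 to 0.323 FPKM in adults and 0.0626 to 0.0814 FPKM at E16.5, and 10.3% to 36.4% of tested genes were listed at 0 in the adult libraries against 3.68% to 4.02% in the E16.5 libraries. One small RNA gene, Mir6236, took 32.7% to 51.7% of summed FPKM in adults and 13.3% to 15.0% at E16.5. The median log2 change over all genes tested was -0.86, so that each change of a member is also given relative to it.

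The first question was which regulators differ on tagged ribosomes between embryonic and adult ChP. Foxj1 and E2f5 were lower in adults and passed the test. Rfx2 was also lower in every adult sample than in any E16.5 sample but missed the threshold. Rfx3, Trp73, Rfx1, Myb and E2f4 did not pass, and Ccno was too low to be tested. Of the 8 members tested, 2 were called higher at E16.5, where 8.83% of the 11601 genes tested were so called, and none was called higher in adults, where the share was 2.12%. Called genes in either direction made up 10.9% of those tested. All 8 changes were negative, as were 72.8% of all changes, and their median was -1.08 on the log2 scale.

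**Figure D1:**
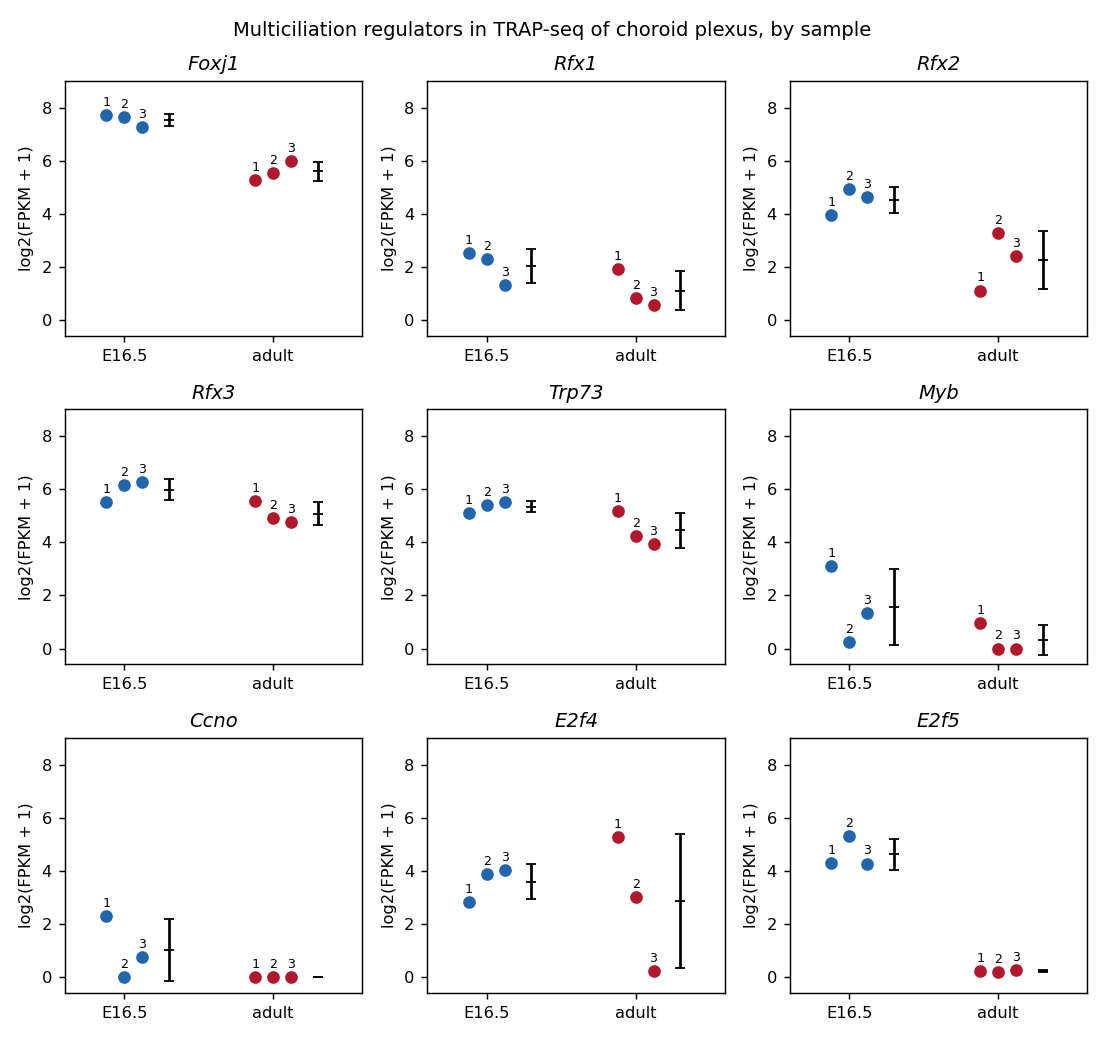
Level of each of the 9 genes in every sample, as log2(FPKM + 1) on the vertical axis, with E16.5 samples in blue and adult samples in red, numbered by replicate. Bars give the mean and SD of each group (n = 3). Foxj1, Rfx2 and E2f5 do not overlap between the ages, and E2f4 spreads over the widest range among adults.

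Foxj1, the forkhead factor that commands the motile cilia program, was the most abundant member at both ages. It lies at chr11:116330704-116335399 on the minus strand. Its FPKM were 37.9, 45.8 and 62.4 in adult replicates 1 to 3 and 208, 198 and 154 in E16.5 replicates 1 to 3. The lowest embryonic sample lay well above the highest adult one. The means were 48.7 ± 12.5 FPKM in adults and 187 ± 28.3 FPKM at E16.5 (SD, n = 3 each), a ratio of 3.83. The log2 change was -1.93 with a standard error of 0.30 (limma adjusted p = 0.0127), or -1.08 relative to the median of all genes. Within each library Foxj1 ranked at percentiles 87.5 to 91.7 of the tested genes in adults and 96.7 to 97.5 at E16.5. Because these are bulk pulldowns, fewer cells that express the gene and less Foxj1 mRNA per cell cannot be told apart.

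That call used all 6 samples. Foxj1 lost it when any one E16.5 replicate was left out, with log2 changes of -1.85, -1.89 and -2.06 and limma adjusted p of 0.0689, 0.0692 and 0.0554 without replicates 1, 2 and 3. Over all genes, the number called went from 1270 with all samples to 57, 43 and 112 in these 3 fits. Foxj1 was called under every other alternative at the same threshold.

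E2f5 showed the widest gap between the ages. It encodes one of the 2 E2F proteins that carry the geminin-family activators to DNA, and lies at chr3:14578641-14606309 on the plus strand. Its FPKM were 0.165, 0.146 and 0.211 in adults and 18.4, 38.5 and 18.3 at E16.5. All adult samples sat near the floor, while every embryonic sample was well above it. Its log2 change was -4.39 with a standard error of 0.63 (limma adjusted p = 0.00945), or -3.53 relative to the median of all genes. E2f5 passed the filter for testing, a mean above 1 FPKM over the 6 samples, through E16.5 alone. Its adult mean was 0.174 FPKM.

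The adult values of E2f5 were worth about 1.04, 2.05 and 1.03 reads, and the E16.5 values about 357, 970 and 425 reads, at the step of a single read in each library. Scaled for depth, the E16.5 level was 163 times the adult level (95% exact interval 63.5 to 598, from about 4 reads against 1752, covering counting error only). At the shallow adult depth a level below that of a few reads could not be resolved. E2f5 stayed lower in adults with limma adjusted p of 0.0600, 0.0632 and 0.0557 when E16.5 replicate 1, 2 or 3 was left out. Its call too thus needed all 3 embryonic samples, in fits that called only 57, 43 and 112 of all genes. Over all alternatives the log2 change of E2f5 lay between -7.01 and -2.87. On the opposite strand 1810022K09Rik overlaps 1.46% of the exonic bases of E2f5. It was listed at 0 in the adults and at 19.4, 2.88 and 82.1 FPKM in E16.5 replicates 1 to 3. Its part in the E2f5 values was not tested.

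E2f4, the paralog of E2f5, showed no such gap. Located at chr8:105297663-105305370 on the plus strand, it had 37.8, 7.12 and 0.182 FPKM in adults and 6.10, 13.8 and 15.3 FPKM at E16.5. The adult samples lay both above and below all the embryonic ones, and the lowest was worth about 1.01 reads. The log2 change of -0.73 with a standard error of 1.20 was not called (limma adjusted p = 0.699), and it turned to 0.57 without adult replicate 3 and to 0.56 under quantile normalization.

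The balance of the pair was then read within samples, where the depth of a library touches both genes. The log2 ratio of E2f4 to E2f5, each with 1 added to its FPKM, was 5.06, 2.82 and -0.03 in adults and -1.45, -1.42 and -0.25 at E16.5. E2f5 exceeded E2f4 in all 3 embryonic samples, and the adult ratios lay above the embryonic ones without overlap. In adult replicate 3 both genes stood at about 1 read, so that its ratio carries little information. The mean difference was 3.65 (two-sided exact permutation p = 0.1, which is the smallest p that 3 against 3 allows, and 0.4 after Benjamini-Hochberg adjustment over 6 ratios).

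**Figure D2:**
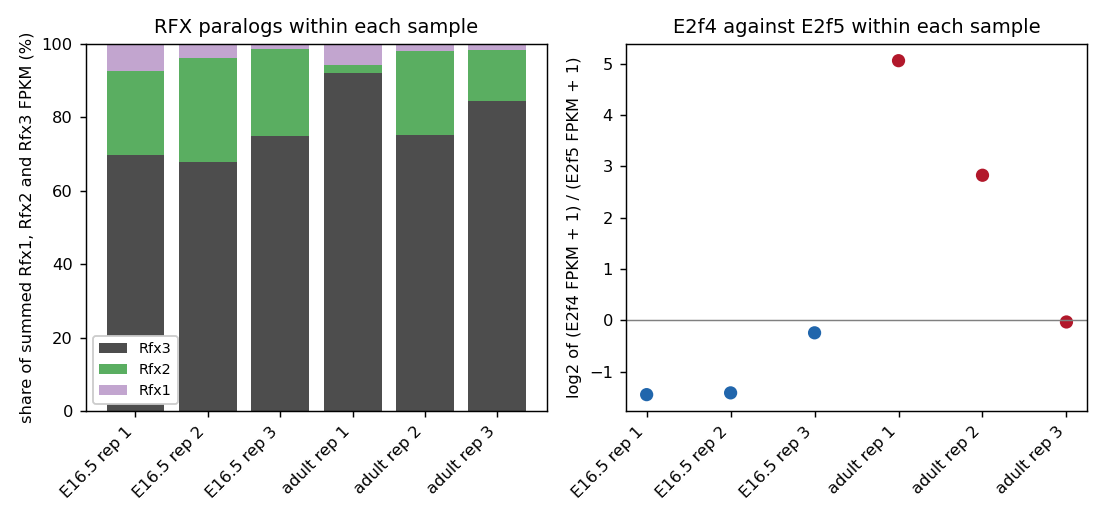
Left, share of the summed FPKM of Rfx1, Rfx2 and Rfx3 that each gene took in each sample (%, stacked bars). Right, log2 ratio of E2f4 to E2f5 with 1 FPKM added to each, one point per sample, embryonic in blue and adult in red. Rfx3 takes the largest share in all 6 samples, and the 3 adult E2f4 to E2f5 ratios lie above the 3 embryonic ones.

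Among the RFX genes, Rfx3 was the most abundant in every sample. RFX3 is needed for nodal and ependymal cilia. The gene lies at chr19:27761721-28011166 on the minus strand, and its FPKM were 46.3, 28.9 and 26.2 in adults and 44.7, 70.6 and 76.1 at E16.5. Adult replicate 1 exceeded E16.5 replicate 1, so the groups overlapped. Adults and embryos were separated by -0.90 on the log2 scale with a standard error of 0.38 (limma adjusted p = 0.153), which was -0.05 relative to the median of all genes.

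Rfx2, a paralog that works beside RFX3 in ciliary promoters, was less abundant. It lies at chr17:56775897-56831013 on the minus strand, and its FPKM were 1.16, 8.76 and 4.35 in adults and 14.7, 29.6 and 24.0 at E16.5. Each adult sample lay below each embryonic sample, as was the case for 31.0% of all genes tested. This gave a log2 change of -2.24 with a standard error of 0.69 (limma adjusted p = 0.0765), or -1.39 relative to the median. Single adult libraries moved this value in both directions. It was -2.75 without adult replicate 2 (limma adjusted p = 0.0388) and -1.66 without adult replicate 1 (limma adjusted p = 0.119).

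Rfx1, the broadly expressed founder of the family, was low throughout. It lies at chr8:84066834-84096992 on the plus strand, and its FPKM were 2.83, 0.767 and 0.493 in adults and 4.76, 3.88 and 1.49 at E16.5, and the groups overlapped. The log2 change was -0.93 with a standard error of 0.70 (limma adjusted p = 0.389), and it turned to 0.66 under quantile normalization. A small part of its exonic bases (0.653%) overlaps an antisense gene.

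Of the summed FPKM of these 3 paralogs, Rfx3 took 92.1%, 75.2% and 84.4% in adults and 69.7%, 67.8% and 75.0% at E16.5. Rfx2 took 2.31%, 22.8% and 14.0% in adults and 22.9%, 28.4% and 23.6% at E16.5. The Rfx3 share was lower in every embryonic sample than in any adult sample, although the nearest samples, at 75.0% and 75.2%, were almost equal. The log2 ratio of Rfx3 to Rfx2 overlapped between the ages, with a mean difference of 1.34 (two-sided exact permutation p = 0.2, adjusted 0.4). The ratios of Rfx2 to Rfx1 and of Rfx3 to Rfx1 differed by -1.31 and 0.03 (two-sided exact permutation p = 0.4 and 1). Foxj1 against Rfx3 differed by -1.03 and Foxj1 against E2f4 by -1.20 (two-sided exact permutation p = 0.2 and 0.6), both with overlapping samples.

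Trp73, whose product p73 is required for multiciliated ependyma and airway cells, had a change close to the median of all genes in the fit reported. The gene lies at chr4:154056253-154140208 on the minus strand. It had 35.1, 17.9 and 14.2 FPKM in adults and 33.4, 41.1 and 44.5 FPKM at E16.5. Adult replicate 1 fell among the embryonic values and the other 2 below them. The log2 change was -0.89 with a standard error of 0.43 (limma adjusted p = 0.203), or -0.03 relative to the median of all genes. Relative to the median it was 0.55 with 0.01 added to FPKM in place of 1. Among genes above 0 in every sample it was -0.51. An antisense gene, Trp73os, overlaps 5.06% of its exonic bases, and reads of the pair cannot be told apart without strand. Gene-level FPKM also do not separate transcripts from the upstream and the internal start of Trp73.

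Myb and Ccno are switched on briefly while centrioles are being amplified. Myb, at chr10:21124935-21160984 on the minus strand, encodes the c-Myb factor, and its FPKM were 0.952, 0 and 0 in adults and 7.53, 0.196 and 1.52 at E16.5. The values of E16.5 replicate 2 lay below that of adult replicate 1, so that the groups overlapped. For Myb the log2 change was -1.24 with a standard error of 0.82 (limma adjusted p = 0.333). Another gene overlaps 6.26% of the exonic bases of Myb on the opposite strand.

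Ccno, at chr13:112987802-112990777 on the plus strand, was listed at 0 in all 3 adults and at 3.86, 0 and 0.689 FPKM at E16.5. Its mean over the 6 samples was 0.758 FPKM, below the filter of 1, and without that filter its log2 change was -1.01 with a standard error of 0.57 (limma adjusted p = 0.324). About 79.4, 0 and 16.9 reads stood behind the embryonic values. Ccno lies beside Mcidas (chr13:112993845-113000394), and Mcidas had the same order of samples, with 5.44, 0 and 1.07 FPKM at E16.5 and 0 in all adults.

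E16.5 replicate 1 was thus the highest sample for Ccno, Myb and Mcidas. The same library was also the highest of the 6 for 9 of 12 markers of neurons and neural progenitors. Their summed level was 157 FPKM there, 42.7 and 49.6 FPKM in the other embryonic samples and 1.27 to 14.4 FPKM in adults. It was highest as well for 19 of 46 motile cilia genes and 9 of 23 genes of centriole assembly. Of 30 intraflagellar transport and BBSome genes it was highest for 4. Hemoglobin chains of red blood cells did not share one order, with Hbb-bs at 299, 3.90 and 86.4 FPKM and Hba-a2 at 20.4, 49.0 and 20.2 FPKM in E16.5 replicates 1 to 3, and both were listed at 0 in the adults. Of the neural markers, Tubb3, Dcx and Stmn2 had 36.2, 8.32 and 25.3 FPKM in E16.5 replicate 1. They had at most 0.623 FPKM in any other sample. Sox2 was highest in E16.5 replicate 3, and Neurod6 and Eomes were listed at 0 in every sample. The part of other cells in the Ccno, Myb and Mcidas values was not tested.

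The order of levels within each age follows from these values. At E16.5, mean levels ran from Foxj1 at 187 FPKM through Rfx3 at 63.8, Trp73 at 39.6, E2f5 at 25.1, Rfx2 at 22.7, E2f4 at 11.7, Rfx1 at 3.37 and Myb at 3.08 to Ccno at 1.52 FPKM. The ranges of neighbours were separate for Foxj1 and Rfx3, for Rfx3 and Trp73, and for E2f4 and Rfx1, and overlapped for the others. In adults the order was Foxj1 at 48.7 FPKM, Rfx3 at 33.8, Trp73 at 22.4, E2f4 at 15.0, Rfx2 at 4.76, Rfx1 at 1.36, Myb at 0.317 and E2f5 at 0.174 FPKM, with Ccno listed at 0. All neighbours but the last pair overlapped in adults, so that Foxj1, which exceeded Rfx3 in 3 of 3 embryonic samples, did so in 2 of 3 adult samples. E2f5 held the fourth place at E16.5 and the eighth in adults.

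**Figure D3:**
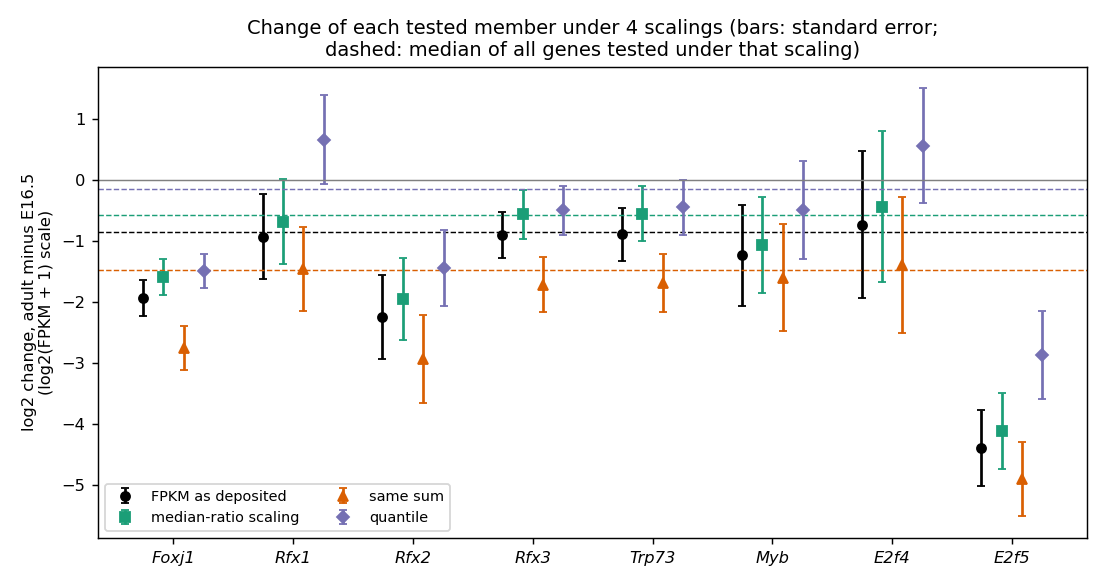
Log2 change, adult minus E16.5, of the 8 tested members on the log2(FPKM + 1) scale under 4 scalings, with standard errors as bars. Dashed lines mark the median of all genes tested under each scaling. Foxj1, Rfx2 and E2f5 are negative under all 4, while Rfx1 and E2f4 turn positive under quantile normalization.

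Relative to the median of all genes, the changes of Rfx1, Rfx3, Trp73 and E2f4 were -0.07, -0.05, -0.03 and 0.12, and those of Foxj1, Rfx2, E2f5 and Myb were -1.08, -1.39, -3.53 and -0.38 on the log2 scale. Differences between members were not tested, and under quantile normalization Rfx1 and E2f4 lay 0.81 and 0.71 above the median. The distances also moved with other settings. With 0.01 added to FPKM in place of 1, Foxj1 and Rfx3 lay at -0.48 and 0.55 relative to the median. Among genes above 0 in every sample they lay at -1.55 and -0.52. Foxj1, Rfx2, Rfx3 and E2f5 had an unadjusted limma p under 0.05 with the higher level at E16.5, as had 25.9% of the genes tested, and no member had one with the higher level in adults, as had 5.34%. In both directions together the share was 31.3%. No tested member lay higher in every adult sample than in any E16.5 sample, as 7.39% of genes did. When libraries were rescaled to the same sum, Rfx2, Rfx3 and Trp73 passed the threshold as well. Their log2 changes were -2.94, -1.72 and -1.69, while the median of all genes moved to -1.48. Under that scaling 3357 of the 11601 genes tested were called, 3238 of them higher at E16.5. With the same sum taken without Mir6236, Rfx2, Rfx3 and Trp73 did not pass (limma adjusted p = 0.0582, 0.129 and 0.162).

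The second question was how the partners and targets of the circuit behaved. None of the 21 tested genes among upstream activators, E2F partners, the DREAM complex and the Notch pathway was called in either direction. Of all genes tested, 10.9% were so called. The median log2 change of these 21 genes, -0.87, was close to that of all genes. Gmnc, which starts the program, had 3.36, 5.38 and 0 FPKM in adults and 8.80, 13.4 and 9.26 FPKM at E16.5. Its adult samples all lay below its E16.5 samples, as for 31.0% of all genes tested. The Gmnc change of -1.90 was not called (limma adjusted p = 0.165). Tfdp2, a DP partner of E2F4 and E2F5, was higher in every adult sample, as were 7.39% of all genes tested. It had 22.0, 16.8 and 21.9 FPKM in adults against 5.76, 9.73 and 7.80 FPKM at E16.5. It missed the threshold as well (log2 change 1.29, limma adjusted p = 0.109). Gmnc and Tfdp2 were chosen after their values were seen. Notch2 and Rbbp4 were the most abundant genes of the list, and their changes of -0.16 and -1.09 had limma adjusted p of 0.751 and 0.0882.

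Among 11 tested relatives of the members, 1 was called, where 10.9% of all genes tested were called in either direction. Trp53, which encodes the p53 tumour suppressor, was higher in adults, with 198, 71.3 and 485 FPKM against 29.9, 25.6 and 14.3 FPKM. Its log2 change was 3.04 with a standard error of 0.67 (limma adjusted p = 0.0329). The adult values spread widely. The call was lost with a pseudocount of 0.01, with no filter on low values, with no intensity trend, and without adult replicate 1 or any one E16.5 replicate, and limma adjusted p reached 0.116 over all alternatives. The difference for E2f6, a repressor E2F, was -0.01 on the log2 scale (limma adjusted p = 0.996).

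Genes of centriole assembly showed 3 calls among 18 tested, all higher at E16.5, a share of 16.7% against 8.83% of all genes tested. Cep44, a centriole protein, was listed at 0 in the adults and at 21.4, 20.3 and 15.6 FPKM at E16.5 (limma adjusted p = 0.00826). Ccdc67, the deuterosome scaffold gene also called Deup1, was listed at 0 in the adults and at 10.6, 5.68 and 7.78 FPKM at E16.5 (limma adjusted p = 0.0222). Cetn4, a centrin, stood at 0, 7.38 and 0 FPKM in adults and 73.7, 16.2 and 45.8 FPKM at E16.5 (limma adjusted p = 0.0386). The more abundant Cetn2 and Odf2 had log2 changes of -1.63 and -0.51 that were not called (limma adjusted p = 0.0574 and 0.407). No call of this list was left when any one E16.5 replicate was removed, where 43 to 112 genes were called in all. The list kept 1 call without adult replicate 1 or under the replicate block. Among genes above 0 in every sample the list also gave 1 call. That call was of another gene, since Cep44, Ccdc67 and Cetn4 were at 0 in some or all adults and could not enter.

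Genes of the motile axoneme and its assembly had the most negative median among the 6 lists. Of 43 tested, 20 were called higher at E16.5 and 0 higher in adults by limma, and 36 lay lower in every adult than in any E16.5 sample. Of all genes tested, 8.83% were called higher at E16.5 and 31.0% lay lower in every adult. All 43 changes were negative, as were 72.8% over all genes, with a median of -2.32, which was -1.46 relative to all genes. Cfap126, the most abundant of them, had 106, 64.3 and 84.9 FPKM in adults and 1199, 1164 and 1007 FPKM at E16.5 (log2 change -3.73, limma adjusted p = 0.000975). Fam183b was listed at 0 in the adults and at 378, 334 and 147 FPKM at E16.5, and Riiad1 and Enkur were listed at 0 in the adults with 223, 180 and 109 FPKM and 166, 128 and 96.5 FPKM at E16.5. Of the 20 called genes, 4 were listed at 0 in every adult. Rsph1, a radial spoke head gene, kept 86.7 to 257 FPKM in adults against 365 to 545 FPKM at E16.5 and was not called (log2 change -1.47, limma adjusted p = 0.0631).

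Intraflagellar transport and BBSome genes, which build and supply all cilia, gave 6 calls among 30 tested, all higher at E16.5, a share of 20% against 8.83% of all genes tested. The median of their changes was -1.79 on the log2 scale, which lay -0.93 from that of all genes. Ift43, Dync2li1 and Ttc30b had changes of -5.40, -5.04 and -4.60 (limma adjusted p = 0.00765, 0.0244 and 0.0166). Ift74, among the most abundant, had a change of -0.91 and was not called (limma adjusted p = 0.187). Leaving out any one E16.5 replicate reduced the calls to 0 here and to between 5 and 7 among motile cilia genes. Over all genes the same fits gave 43 to 112 calls. Without adult replicate 3 there were 11 calls among the transport and BBSome genes, and with a pseudocount of 0.1 there were 3.

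**Figure D4:**
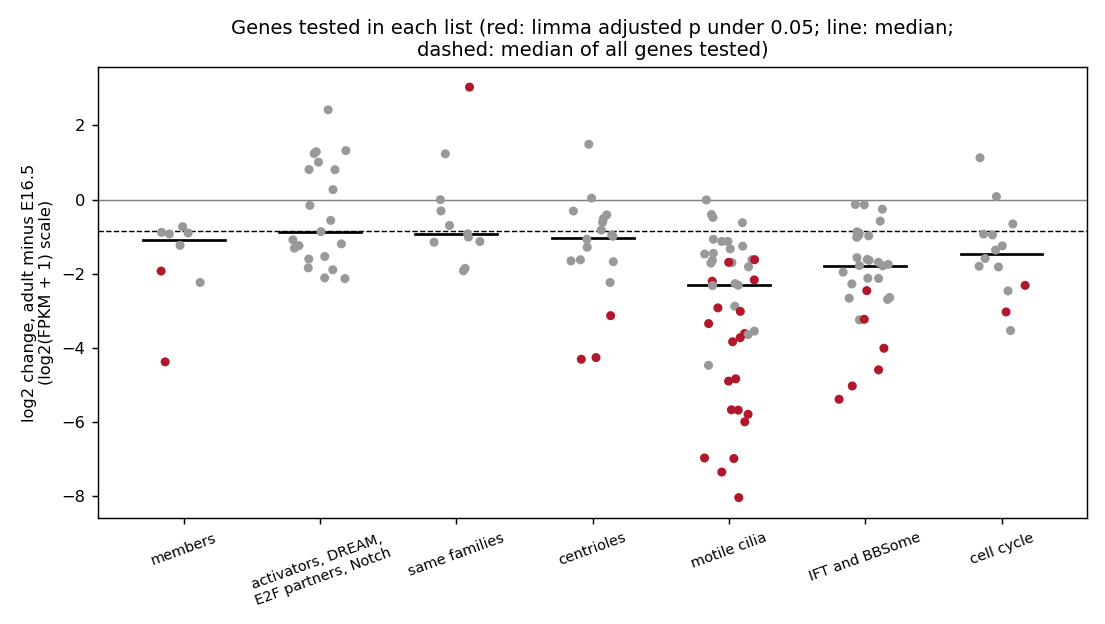
Log2 change, adult minus E16.5, of every tested gene in the members and in 6 related lists, one point per gene on the log2(FPKM + 1) scale. Red points have a limma adjusted p under 0.05, black lines are list medians, and the dashed line is the median of all genes tested at -0.86. The motile cilia list, with a median of -2.32, has the lowest median and the lowest single gene.

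Cell cycle genes were included because Myb and the E2F genes also act in the cell cycle. Of 14 tested, 2 were called, both higher at E16.5, a share of 14.3% against 8.83% of all genes tested. Top2a and Rrm2 were listed at 0 in the adults and at 4.72, 6.08 and 12.7 FPKM and 3.18, 2.62 and 7.23 FPKM at E16.5 (limma adjusted p = 0.0280 and 0.0477). Pcna and Mcm4, the most abundant, had log2 changes of -3.54 and -0.93 that were not called (limma adjusted p = 0.110 and 0.253). Neither call was left under quantile normalization, under the replicate block, without adult replicate 1 or without any one E16.5 replicate.

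Other multiciliated cells could contribute to these lists. The 8 markers used for ependyma of the ventricle wall, of which 3 also stand in the motile cilia list, summed to 18.8 to 122 FPKM in adults and 803 to 882 FPKM at E16.5, and 3 of 6 tested were called higher at E16.5 (8.83% of all genes tested). The called markers were Ak7, Rarres2 and Vim. Dynlrb2, the most abundant of them and also a ciliary dynein gene, had 99.1, 49.2 and 0 FPKM in adults and 564, 498 and 486 FPKM at E16.5. Rarres2 had 0, 2.23 and 0 FPKM in adults and 21.2, 22.6 and 32.6 FPKM at E16.5, and Ak7, which is also in the motile cilia list, had 0.883, 4.60 and 0 FPKM and 126, 95.1 and 118 FPKM. Ccdc153 was at 1.35 FPKM or less in every sample. Tmem212 and S100b ran the other way. Tmem212 was listed at 0 in all E16.5 samples and had 0, 2.63 and 0 FPKM in adults. S100b had 0, 8.97 and 0 FPKM in adults and 0.492, 0 and 0.139 FPKM at E16.5. The S100b log2 change of 0.85 was not called (limma adjusted p = 0.554). Vim, shared with mesenchyme and progenitors, had 21.6, 0.553 and 0 FPKM in adults and 141, 144 and 199 FPKM at E16.5. Mesenchymal markers summed to 21.6 to 39.1 FPKM in adults and 90.3 to 108 FPKM at E16.5. The part of these cells in the Foxj1, E2f5 and ciliary values was not tested.

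The genes whose levels ran most like Foxj1 over the 6 samples were Arvcf, Cplx2 and Tmem9, with Pearson r of 0.997, 0.996 and 0.996 on the log2(FPKM + 1) scale. For E2f5 they were Hba-a2, Nkapl and Rnf144a, with r of at least 0.999. The samples form 2 ages that share depth and scaling, and 1040 genes had r above 0.9 with Foxj1 and 1157 with E2f5, so that a high r sets no gene apart here.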

How the data were processed

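TRAP mRNA of 3 adult and 3 E16.5 samples was sequenced after ribodepletion (SMARTer Pico). The authors aligned 50-base single-end reads to mm10 with STAR 2.4.0 and deposited gene FPKM from Cuffquant of Cufflinks. The gene models behind these FPKM, the strand setting and any scaling between samples are not given in the sources used here. The members and lists were chosen with earlier results of these data known.

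FPKM were used as deposited. The 11601 genes with a mean above 1 were tested on log2(FPKM + 1), which understates the change of low genes, with limma 3.58.1 (R 4.3.3, intensity trend, no covariates) and Benjamini-Hochberg adjustment over all of them, at 0.05. Changes are adult minus E16.5. The filter used the mean over all 6 samples. E2f5, Myb and the called genes listed at 0 in every adult therefore passed it through their E16.5 values alone. Ratios within samples were compared by two-sided exact permutation tests.

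Named genes were the members, up to 3 called genes per direction and the 2 most abundant of each list, and the 3 genes most like each called member. Other genes named were chosen after their values were seen.

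FPKM carry no depth, which was therefore estimated from low values among 2520 single-transcript genes, at an effective length 200 bases under the transcript. Per library 32 to 54 low values were used, of which 62.5% to 84.4% came within 0.1 of a whole read. The step was chosen for the best fit to these same values, so the shares do not test it. Reads of members assume the longest coding transcript. Coordinates are from GENCODE and promoters from RefSeq, both on GRCm38. No source used here pairs replicate numbers across ages, and the fit reported used no pairing.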

Additional observations from a re-analysis of the deposited data

How the results depend on the processing

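The 1270 genes called became 722 with genes above 0 in every sample, 3357 with libraries rescaled to the same sum, 564 with a replicate block, 188 at an adjusted p of 0.01, and 43 to 1923 with 1 sample left out. Fewest were called without an E16.5 replicate, with 57, 43 and 112 genes without replicates 1, 2 and 3, and most without adult replicate 2. The share of calls higher in adults was 19.4% in the fit reported, 34.5% with median-ratio scaling, 3.54% with the same sum, 50.9% with quantile normalization and 37.5% with genes above 0 in every sample. Foxj1 (-1.93) missed an adjusted p of 0.01 and ran from -2.12 to -1.77 with 1 sample left out, and E2f5 from -4.56 to -4.04. Rfx2 ran from -2.75 to -1.66 and E2f4 from -1.95 to 0.57. Rescaling to the same sum gave -2.94 for Rfx2, -1.72 for Rfx3 and -1.69 for Trp73, all past the threshold. None of them passed it after rescaling to the same sum without Mir6236. Quantile normalization gave 0.66 for Rfx1 and 0.56 for E2f4. The Rfx3 to Rfx1 ratio difference was -0.25 after rescaling to the same sum, -0.046 after rescaling to the same sum without Mir6236, -1.16 after quantile normalization, and -0.45 to 0.53 with 1 sample left out. The Foxj1 to E2f4 ratio difference ran from -2.69 to 0.18. The causes were not tested. Myb kept its direction and was not called under the 15 alternatives that gave it a value. It gave none with a mean above 5, with genes above 0 in every sample or without E16.5 replicate 1, where it failed the filter. The other 4 ratios kept their direction under 13 alternatives, and their permutation p could not pass 0.05 in any. Counts of called genes in the lists moved by over 1.5 times under up to 14 of 18 alternatives, the most for cell cycle genes.

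Same-numbered samples hardly deviated together (r of 0.00089, 0.0439 and 0.0150), where other pairs across the ages had r of -0.0292 to 0.0135. With 3 samples per age this cannot settle whether the numbers are a pairing. The replicate block changed no member's call, with limma adjusted p of 0.0381 for Foxj1 and 0.0338 for E2f5. The adult values of E2f5, E2f4, Myb and Ccno rest on few or no reads in some libraries. For E2f4 this holds in adult replicate 3 alone, with about 1.01 reads against about 270 and 113 in adult replicates 1 and 2. The part of depth in these values was not tested.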
